A study of Caenorhabditis elegans with 6 samples.

Results

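The transthyretin-like (ttr) genes of Caenorhabditis elegans were described in whole animals of the fourth larval stage (L4). All genes whose WormBase symbol is ttr followed by a number were taken, apart from ttr-39, which gave 57 of the 46911 genes counted. RNA-seq compared 3 libraries of strain VC295, the unc-30(ok613) mutant (unc-30 lies on chromosome IV), with 3 libraries of wild-type N2. The product of unc-30 is a homeodomain factor that sets the identity of D-type GABAergic motor neurons, and the design asks which genes differ in its mutant at this stage. Both strains grew on E. coli OP50, and no tissue was separated. Groups follow the strain label, because the genotype label gives unc-30(ok613) for each of the 6 samples. The labels do not state whether replicates were separate cultures, and p-values therefore reflect a spread between samples that may be technical.

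Transthyretin-like proteins are a family of short secreted proteins found in nematodes. They share a distant resemblance with transthyretin, the vertebrate carrier of thyroid hormone and retinol-binding protein, but are not known to carry either. Few members have a described role. TTR-52 is secreted and bridges phosphatidylserine exposed on a dying cell to the engulfment receptor CED-1, and it also acts in the fusion of severed axons. TTR-11 binds phosphatidylserine and has been placed upstream of integrin in axon regeneration. TTR-33 protects dopaminergic neurons from oxidative stress. For the other members described here no role is given.

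The genes were short and scattered. In the WBcel235 annotation all 57 were protein coding, with a median exonic length of 569 bases (460 to 1415) against 1366 bases for all tested genes. The coding length was 390 to 540 bases in 53 of the 57, and the longest was that of ttr-14, with 1218 coding bases over 9 exons. Chromosome V held 22 members and chromosome X 12, followed by chromosomes III and IV with 9 each, I with 3 and II with 2. Members next to each other, with no coding gene between them, formed 16 pairs that involved 28 members. Exons of 16 members overlapped exons of another gene, and since no source used here gives the strand setting of the counting, reads in those stretches cannot be assigned with certainty. Reads shared between similar members were not examined.

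The counts of unc-30 itself were 20, 24 and 17 in the mutant libraries and 23, 26 and 17 in the wild-type libraries. On the TMM scale explained below, unc-30 had 1.29 to 1.403 CPM in the mutant and 0.533 to 1.07 CPM in wild type, so the groups did not overlap and the mutant was the higher one (log2 fold change 0.88, edgeR adjusted p = 0.128). On that scale the targeted gene was thus not lower in the mutant libraries, and its log2 fold change under scaling by total counts is not given here. Since the extent of the deletion is not known here, its counts do not check the labels. Total counts ran from 17318736 to 26377332 per library, and the floor of 3 counts equals 0.0765 to 0.227 CPM. CPM, the read count relative to library size, were scaled by trimmed mean of M-values (TMM) factors. These ranged from 0.654 to 0.760 for mutant libraries and from 1.38 to 1.49 for wild-type ones. Under scaling by total counts alone the median of all genes moves by -1.01 on the log2 scale (from -0.10 to -1.11). Every direction below is therefore relative to the TMM reference unless total counts are named. Mutant replicate 1 and wild type replicate 2 stood apart from the other libraries of their groups. On the first principal component of all tested genes mutant replicate 1 lay at -31.8 (the other mutant libraries at -93.3 and -94.7), and wild type replicate 2 at 36.0 (the others at 90.3 and 93.5). Summed marker levels of intestine, body wall muscle, hypodermis, pharynx, glia and neurons were each higher in every mutant library than in every wild-type library. The sums were 7123 to 10899 CPM against 2041 to 3746 CPM for intestine, 10655 to 15732 against 3820 to 6688 for muscle, 3745 to 4857 against 1404 to 2512 for hypodermis, 354 to 578 against 201 to 284 for pharynx, 34.4 to 55.4 against 18.5 to 26 for glia and 229.8 to 313 against 154 to 167 for neurons. Of the matched markers, 3 of 7, 3 of 5, 2 of 5, 4 of 8, 2 of 6 and 1 of 8 rose, and 1 muscle marker fell. Of all tested genes 17.1% rose and 20.9% fell. The median log2 fold change of the neuron markers was -0.25, so their higher sum does not stand for most of them. For the other 5 tissues the medians were 0.67 (intestine), 0.84 (muscle), 1.92 (hypodermis), 1.03 (pharynx) and 0.98 (glia). Single markers within a list still differed in direction. Examples are asp-1 (log2 fold change 1.96) and elt-2 (-0.29) for intestine, and dpy-7 (3.28) and col-19 (-0.92) for hypodermis. In the pharynx list myo-2 was at 1.09 and ceh-22 at -1.58. The sums for dopaminergic neuron markers were 3.60 to 4.38 against 1.68 to 3.45 CPM, with 0 of 2 called. The groups overlapped for germline (1328 to 2224 against 1331 to 1873 CPM, 0 of 6 called), sperm (389.8 to 658 against 391.8 to 698, 2 of 8 lower), coelomocytes (7.98 to 10.00 against 8.26 to 13.0, 0 of 2 called) and adult yolk proteins (629 to 10902 against 5797 to 20821, 0 of 3 called). No marker was at 0 in all libraries. In whole animals a change in the number of cells of a type and a change in RNA per cell cannot be told apart, and the part of these markers in the ttr results was not tested.

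As a family the ttr genes made up a small share of the reads, and a few members carried much of it. The 57 genes took 0.151% to 0.159% of counts in mutant libraries and 0.179% to 0.293% in wild-type ones, with 51 to 56 members detected in each library. On the TMM scale the group mean was higher in the mutant: the family summed to 2094, 2271 and 2302 CPM in the mutant replicates and to 1509, 1277 and 2130 CPM in the wild-type replicates. There the groups overlapped, since wild type replicate 3 lay above mutant replicate 1. The 5 most abundant members of a library held 56.2% to 56.9% of the family's counts in mutant libraries and 47.1% to 53.1% in wild-type ones. Per kilobase of exon, 7 members averaged at least 100 CPM over the 6 libraries, 21 were between 10 and 100 CPM and 29 were below 10 CPM.

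ttr-15 (WBGene00011561, chromosome III, 10337847 to 10339440, plus strand) ranked 1 in both genotypes by level per kilobase. Its level was 578 ± 243 CPM per kb in wild type and 595 ± 108 CPM per kb in the mutant (SD, n = 3 each). It had 437, 312 and 338 CPM in the mutant (replicates 1, 2 and 3) against 390.2, 188 and 477 CPM in the wild-type replicates, so the groups overlapped. The log2 fold change of mutant minus wild type was 0.04 ± 0.33 (SE; edgeR adjusted p = 0.929). Below ttr-15 the order differed between the genotypes. In wild type ttr-2 (234.5 ± 72.5 CPM per kb), ttr-16 (217 ± 24.9), ttr-46 (161 ± 37.8), ttr-41 (157 ± 32.0) and ttr-18 (145 ± 29.3) followed, and ttr-2 and ttr-16, like the last 3 of these, differed by less than the larger SD. In the mutant ttr-18 ranked 2 (567 ± 136 CPM per kb), ahead of ttr-16 (440 ± 65.2), ttr-41 (376 ± 40.1), ttr-2 (334 ± 15.5) and ttr-46 (257 ± 9.43), and the gap between ttr-15 and ttr-18 was smaller than their SD. ttr-14 had the rank 8 in wild type (109 ± 60.1 CPM per kb) and the rank 31 in the mutant (8.61 ± 4.84).

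**Figure D1:**
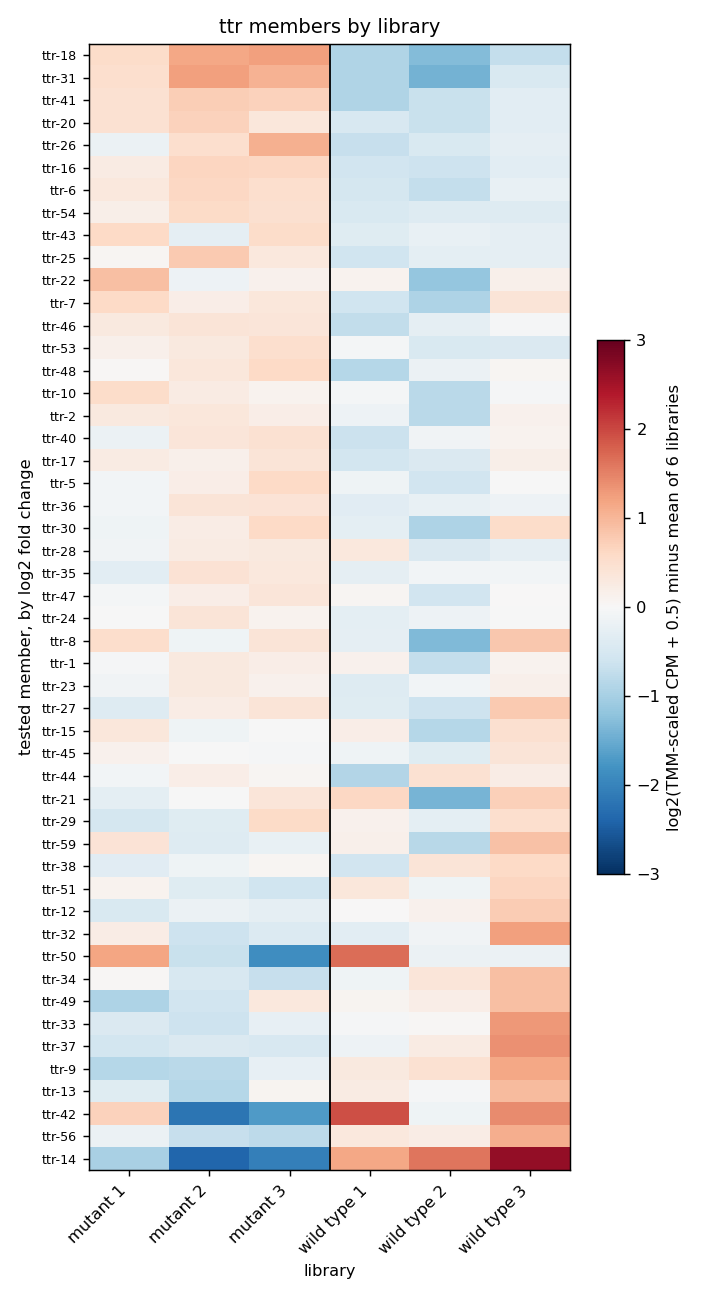
Heat map of the 50 tested ttr members (rows, ordered by log2 fold change) in the 6 libraries (columns, mutant left of the line). Colour is log2(TMM-scaled CPM + 0.5) minus the member's mean over the 6 libraries. ttr-18 and ttr-31 are higher in all 3 mutant libraries and ttr-14 is higher in all 3 wild-type libraries, while ttr-42 and ttr-50 differ as much within the groups as between them.

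Of the 57 members, 50 passed the expression filter and were tested. Relative to the TMM reference 10 rose in the mutant, 3 fell and 37 did not pass, whereas under total-count scaling 2 rose and 20 fell (edgeR quasi-likelihood test, Benjamini-Hochberg adjusted p under 0.05 over all genes). The share of rises, 20.0%, was near the 17.1% of all 14506 tested genes, and the share of falls, 6.0%, was below the 20.9% of all genes, a difference that was not tested. Under total-count scaling 3.43% of all genes rose and 56.4% fell. Without both libraries that stand apart 11 members rose and 8 fell (22% and 16%, beside 23.7% and 26.6% of all genes). Single libraries also moved the counts: 5 members rose without mutant replicate 2 and 6 without mutant replicate 3, where 9.42% and 9.02% of all genes rose. Without wild type replicate 1 9 members fell (17.5% of all genes), without mutant replicate 1 or wild type replicate 2 5 fell (21% and 21.8% of all genes), and without wild type replicate 3 1 fell (12.9% of all genes). The median log2 fold change of the tested members was 0.33 against -0.10 for all genes, and -0.70 against -1.11 under total-count scaling. For 21 tested members the mutant and wild-type values were separate (42%, against 52.6% of all tested genes), 15 of them higher and 6 lower in the mutant. A log2 fold change between -1 and 1 was found for 74.0% of the tested members and 60.9% of all genes.

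The strongest rises were those of ttr-18 and ttr-31, and these were the members still called higher under total-count scaling. ttr-18 (WBGene00007142, chromosome II, 11485510 to 11486748, minus strand) had 224, 342 and 359.9 CPM in mutant replicates 1 to 3 and 81.7, 62.0 and 93.6 CPM in wild type replicates 1 to 3. Every mutant library lay above every wild-type library, and mutant replicate 1 was the lowest of its group. The fold was 3.90, with a log2 fold change (± SE) of 1.96 ± 0.26 (edgeR adjusted p = 0.00260), and 0.93 under total-count scaling (edgeR adjusted p = 0.00978). ttr-31 (WBGene00010225, chromosome X, 11008268 to 11009054, minus strand) had 58.3, 96.9 and 85.6 CPM in mutant libraries and 21.7, 15.1 and 29.7 CPM in wild-type ones. The groups were again separate, with a 3.62-fold rise (log2 fold change 1.86 ± 0.31, SE; edgeR adjusted p = 0.00403) that was 0.83 on the log2 scale under total-count scaling (edgeR adjusted p = 0.0441).

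Among the next rises were abundant members whose fold was near 2 and whose call depended on the scaling. ttr-41 (WBGene00017374, chromosome II, 4727328 to 4727869, minus strand) had 163, 200.01 and 195 CPM in the mutant against 63.7, 75.1 and 94.99 CPM in wild type. It rose 2.39-fold (log2 fold change 1.25 ± 0.22, SE; edgeR adjusted p = 0.00446), and the difference was 0.24 under total-count scaling, where it did not pass. ttr-41 and ttr-18 are the members on chromosome II, where they lie on different parts of the chromosome. ttr-16 (WBGene00012382, chromosome IV, 11063530 to 11064137, minus strand) had 187, 246 and 245 CPM in mutant libraries and 105, 103 and 126 CPM in wild-type ones, a 2.03-fold rise (log2 fold change 1.02 ± 0.20, SE; edgeR adjusted p = 0.00666). The groups did not overlap, but the log2 fold change was -0.00053 under total-count scaling. Exons of lin-3, the epidermal growth factor gene on the opposite strand, cover 40.7% of the exonic length of ttr-16. lin-3 had 7.96 ± 2.97 CPM in mutant libraries and 16.9 ± 10.5 CPM in wild-type ones (SD; n = 3 per group), with a log2 fold change of -1.08 that did not pass (edgeR adjusted p = 0.0954). ttr-6 (chromosome X) had 60.7, 75.6 and 69.5 CPM in mutant libraries and 33.8, 29.6 and 41.5 CPM in wild-type ones, 1.96-fold higher (edgeR adjusted p = 0.0104), and -0.05 on the log2 scale under total-count scaling.

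The remaining rises were those of less abundant members and of ttr-46, and each lost its call without at least 1 library. ttr-20 (chromosome IV) had 6.30, 7.43 and 5.76 CPM in mutant libraries and 3.03, 2.59 and 3.45 CPM in wild-type ones (2.15-fold, edgeR adjusted p = 0.0181). ttr-54 (chromosome IV) had 5.08, 6.78 and 6.36 CPM against 3.08, 3.25 and 3.29 CPM (1.89-fold, edgeR adjusted p = 0.0311). ttr-26 (chromosome V) ranged from 8.49 to 20.7 CPM in mutant libraries and from 5.71 to 7.93 CPM in wild-type ones (2.09-fold, edgeR adjusted p = 0.0438). The groups did not overlap for any of these, and the spread of ttr-26 was mostly within the mutant. Its neighbour ttr-25 had 27.9 ± 7.44 CPM in mutant libraries and 15.8 ± 1.96 CPM in wild-type ones (SD, n = 3 each; log2 fold change 0.82, edgeR adjusted p = 0.0417). ttr-46, the called member with the smallest change, had 164, 176 and 173 CPM against 80.7, 111 and 131 CPM (1.59-fold, edgeR adjusted p = 0.0415). Under total-count scaling none of these 5 passed, and their log2 fold changes were 0.09, -0.10, 0.03, -0.20 and -0.34 in the order given. Of the 10 rises, 5 (ttr-18, ttr-31, ttr-41, ttr-16 and ttr-6) were called whichever single library was left out. ttr-20 lost its call without mutant replicate 2. ttr-54 lost it without either mutant replicate 2, mutant replicate 3, wild type replicate 1 or wild type replicate 3, ttr-46 without the same mutant libraries or wild type replicate 1 or 2, and ttr-25 and ttr-26 without any library but mutant replicate 1. The call of ttr-26 was also lost with limma-voom (adjusted p = 0.0553) and that of ttr-54 with no expression filter (edgeR adjusted p = 0.0538).

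**Figure D2:**
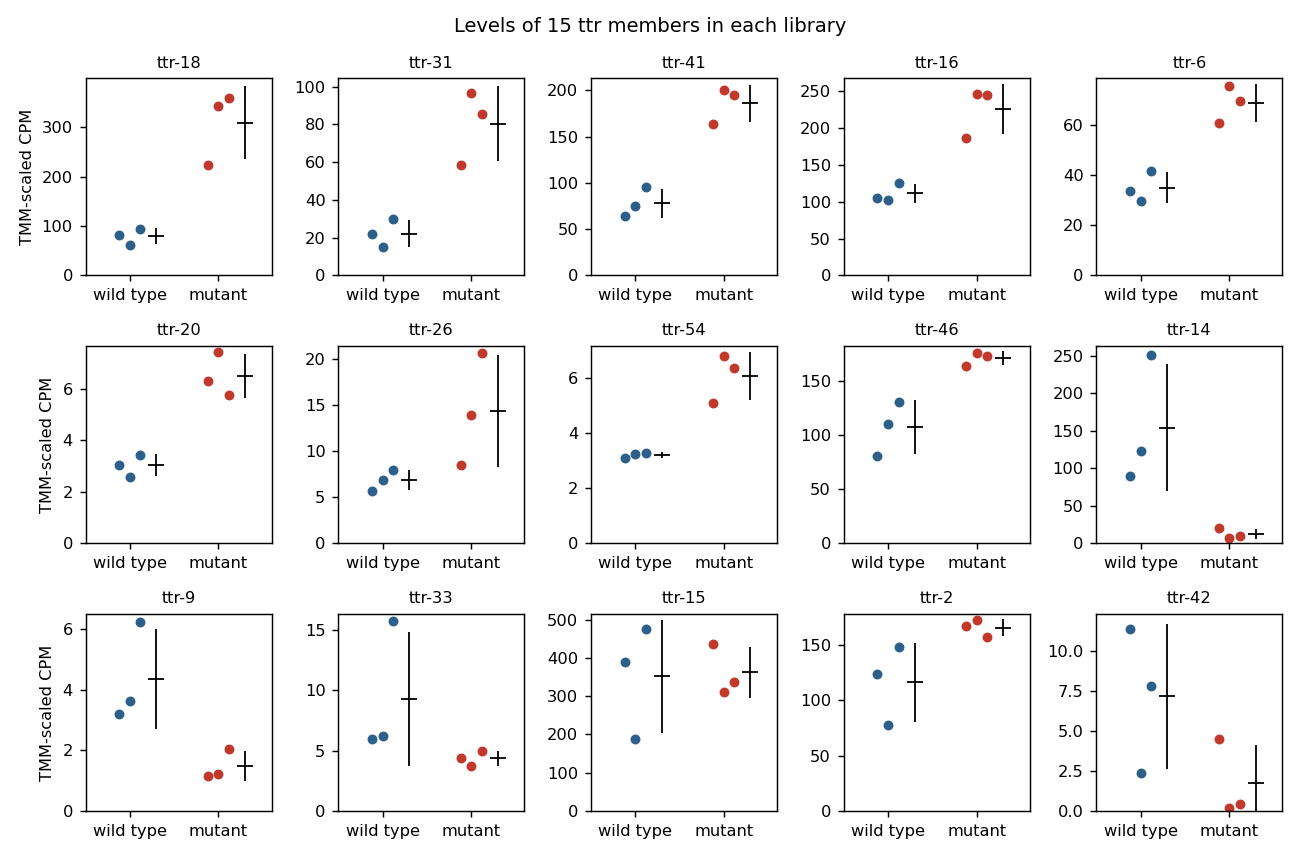
TMM-scaled CPM of 15 ttr members in each library (points, replicates 1 to 3 from left to right in each group), with the mean and SD of the 3 libraries (black). On this scale the mutant lies above wild type with no overlap for the 9 members from ttr-18 to ttr-46, and below it for ttr-14, ttr-9 and ttr-33, while the groups of ttr-15 and ttr-42 overlap.

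ttr-14 showed the largest difference among the members that passed the expression filter, and was lower in the mutant. ttr-14 (WBGene00011460, chromosome X, 10787503 to 10789700, plus strand) had 20.0, 7.25 and 9.31 CPM in mutant replicates 1 to 3 and 89.3, 123 and 250.3 CPM in wild type replicates 1 to 3. Every mutant library was far below every wild-type library, although the wild-type values themselves spread widely. It fell 12.6-fold (log2 fold change -3.66 ± 0.54, SE; edgeR adjusted p = 0.00355). The fall passed under total-count scaling (-4.62), with length trends removed (-3.51) and without any single library (-3.12 to -4.14). Summed over libraries it had 14471 counts in wild type and 558 in the mutant. Exons of vap-2, on the opposite strand, cover 6.4% of its exonic length. vap-2 also fell (1.71 ± 1.75 against 17.1 ± 11.8 CPM, SD, n = 3 each; edgeR adjusted p = 0.0245), at a level well below that of ttr-14.

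The other falls were those of less abundant members. ttr-9 (chromosome IV) had 1.16, 1.23 and 2.04 CPM in mutant libraries and 3.21, 3.62 and 6.23 CPM in wild-type ones, 2.96-fold lower (log2 fold change -1.57 ± 0.41, SE; edgeR adjusted p = 0.0187). Leaving out mutant replicate 2 or wild type replicate 3 ended its call. ttr-56 (chromosome I) had 6, 2 and 1 counts in the mutant libraries, in replicate order, and 29, 16 and 52 in wild type. It was lower in the mutant with a log2 fold change (± SE) of -2.34 ± 0.68 (edgeR adjusted p = 0.0270), but leaving out mutant replicate 2, mutant replicate 3 or wild type replicate 3 ended the call. ttr-9 and ttr-56 also passed under total-count scaling and with length trends removed.

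**Figure D3:**
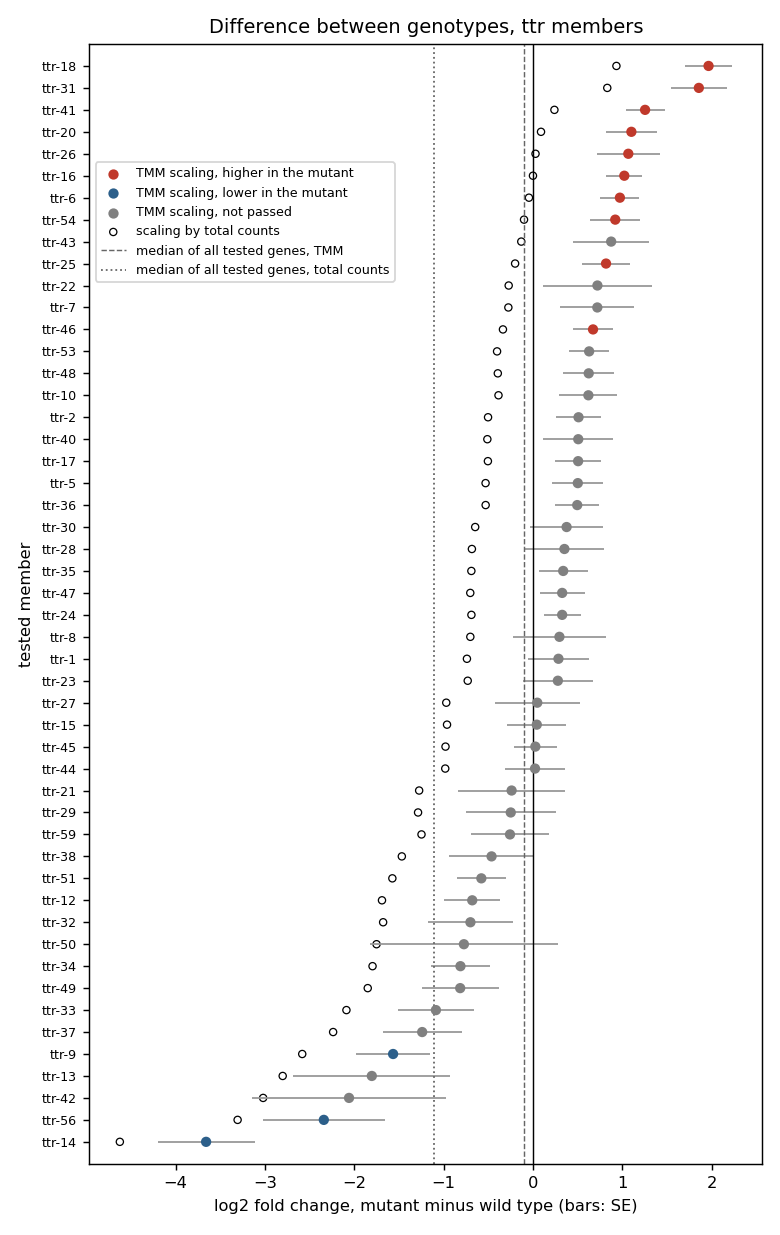
Log2 fold change of mutant minus wild type (x axis) for the 50 tested members (y axis). Filled points are the TMM-scaled fit with SE bars, coloured by the call, and open points are the fit scaled by total counts. The dashed and dotted lines mark the medians of all tested genes under the 2 scalings, -0.10 and -1.11, and ttr-18 and ttr-31 are the 2 called rises furthest from both.

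Among the 37 tested members that did not pass, 23 had a log2 fold change above 0 and 14 below 0, and 4 had an unadjusted p under 0.05. The groups did not overlap for 8 of them, 5 higher and 3 lower in the mutant. Among all tested genes, called or not, the groups did not overlap for 52.6%. For neither count was the share among uncalled genes computed. In wild type replicate 3 the ttr genes were high: it was the highest wild-type library for 42 of the 50 tested members (84.0%), against 35.3% of all tested genes. For 12 of the 14 members below 0 it was the highest of the wild-type libraries. ttr-33, the dopaminergic neuron protector, was 1 of these. It had 4.37, 3.74 and 4.998 CPM in mutant libraries and 5.91, 6.21 and 15.7 CPM in wild-type ones. Every mutant value was below every wild-type value, but the wild-type mean rests largely on replicate 3 (log2 fold change -1.09 ± 0.43, SE; edgeR adjusted p = 0.0735). Without that library the log2 fold change was -0.47 (edgeR adjusted p = 0.262), and it passed as lower without wild type replicate 1 or 2, under total-count scaling (-2.09), with length trends removed (-1.36) and with a replicate block (-0.94, edgeR adjusted p = 0.0461). ttr-37 showed the same arrangement, at 2.96, 3.22 and 3.10 CPM against 4.002, 5.51 and 12.4 CPM (log2 fold change -1.24 ± 0.44, SE; edgeR adjusted p = 0.0545). It passed with DESeq2 (adjusted p = 0.0346), with no expression filter (edgeR adjusted p = 0.0375), with a replicate block (edgeR adjusted p = 0.0491), under total-count scaling, with length trends removed and without wild type replicate 1 or 2. ttr-2, rank 2 by level in wild type, had 167, 172 and 157 CPM in mutant libraries and 124, 77.3 and 148 CPM in wild-type ones (log2 fold change 0.51, and -0.50 under total-count scaling; edgeR adjusted p = 0.142).

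Among the tested members ttr-42 had the largest change that did not pass, and it was highest in replicate 1 of each group, as was the yolk protein sum. It had 70, 3 and 6 counts in the mutant libraries (4.50, 0.175 and 0.454 CPM) and 444, 57 and 248 in wild type (11.3, 2.34 and 7.77 CPM). Mutant replicate 1 lay inside the wild-type range and the other mutant libraries far below it (log2 fold change -2.06 ± 1.08, SE; edgeR adjusted p = 0.171). Without mutant replicate 1 the log2 fold change was -4.46 and passed (edgeR adjusted p = 0.00736). ttr-50, singled out after its values were seen, had 4.82, 0.994 and 0.151 CPM in mutant libraries and 7.01, 1.604 and 1.598 CPM in wild-type ones (log2 fold change -0.77, edgeR adjusted p = 0.587). The summed level of vit-2, vit-5 and vit-6, yolk protein genes whose expression begins at the transition to adulthood, was 10902, 629 and 774 CPM in mutant replicates 1 to 3 and 20821, 5797 and 10726 CPM in wild type. For ttr-42, ttr-50 and the yolk sum the highest library of each group was replicate 1. The share of genes with replicate 1 highest in both groups at once was not computed. Taken alone, mutant replicate 1 was the highest mutant library for 42.2% of all tested genes and 15 of the 50 tested members. Wild type replicate 1 was the highest wild-type library for 34.6% of all tested genes and 6 of the 50 tested members. For mutant replicates 2 and 3 the order of ttr-50 was opposite to that of the yolk sum. The part of the yolk genes' variation in the ttr-42 and ttr-50 values was not tested.

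**Figure D4:**
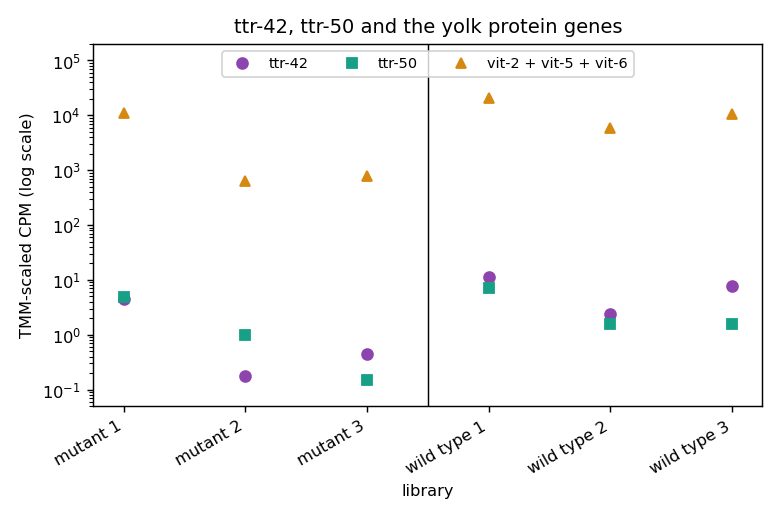
TMM-scaled CPM (log scale) of ttr-42, ttr-50 and the sum of vit-2, vit-5 and vit-6 in each of the 6 libraries. In the mutant all 3 are highest in replicate 1 (4.50, 4.82 and 10902 CPM), and in wild type they are also highest in replicate 1.

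The 7 members that did not pass the expression filter included 2 of the 3 with a described role. With no expression filter 10.8% of 21843 genes rose and 13.6% fell. ttr-52, the bridge to CED-1, had 0, 7 and 1 counts in the mutant libraries and 2, 2 and 2 in wild type. It was at or under the floor of 3 counts in every library but mutant replicate 2, and no difference was detectable at this depth (ratio of wild type to mutant 0.360, exact 95% interval 0.103 to 1.18, counting error only). ttr-11 had 0, 1 and 2 counts in the mutant and 10, 11 and 21 in wild type. Per scaled count wild type exceeded the mutant by a ratio of 6.73 (exact 95% interval 2.15 to 33.9), and with no expression filter the edgeR adjusted p was 0.0511. ttr-57, which lies next to ttr-11, had 1, 3 and 1 counts against 11, 3 and 13 (ratio 2.59, exact 95% interval 0.985 to 8.63). ttr-3 had 1 count over all 6 libraries and ttr-19 had 0, which allows a pooled level of up to 0.0654 CPM in mutant libraries and 0.0314 CPM in wild-type ones.

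The 3 members on chromosome I lie next to each other on the plus strand, and each had fewer scaled reads in the mutant. ttr-55 had 0 counts in every mutant library and 10, 9 and 15 in wild type replicates 1 to 3. Its pooled wild-type level was 5.44-fold the floor of 3 counts over the mutant libraries, a value without an interval (edgeR adjusted p = 0.00921 with no expression filter). ttr-58 had 1 count over the mutant libraries and 3, 13 and 29 in wild type, a ratio of 21.6 (exact 95% interval 3.69 to 873; edgeR adjusted p = 0.0197 with no expression filter). ttr-56, described above, lies between them, and its exons overlap those of ttr-55 by 17 bases. All intervals cover counting error only, and the wild-type levels of these genes were at most 1.63 CPM in any library.

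Neighbouring members did not always move together. In 12 of the 16 adjacent pairs both members were tested, and in 7 of these both log2 fold changes had the same sign. Only for ttr-25 and ttr-26, separated by 658 bases on chromosome V, did both members rise (log2 fold changes 0.82 and 1.07). In 3 of the 12 pairs 1 member was called: ttr-16 beside ttr-17 (1.02 and 0.50), ttr-54 beside ttr-53 (0.92 and 0.63, the latter called with DESeq2, adjusted p = 0.0375) and ttr-25 beside ttr-24 (0.82 and 0.33). ttr-40 and ttr-49 lie 33 bases apart on the same strand, with log2 fold changes of 0.51 and -0.82, neither of which passed. ttr-51 and ttr-45 lie 126 and 130 kb from the end of unc-30 on chromosome IV. They were abundant members whose groups overlapped, at 44.9 ± 11.3 against 67.0 ± 17.2 CPM for ttr-51 and 64.7 ± 4.16 against 63.5 ± 17.8 CPM for ttr-45 (SD, n = 3 each), and neither passed (log2 fold changes -0.58 and 0.03).

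Gene length moved with the result across the genome. Over 14496 tested genes with a known length the log2 fold change fell as exonic length increased (Spearman's rho -0.22 across genes, which are not independent replicates), and over the 50 tested members rho was -0.32. Among the 2993 tested genes with an exonic length of 460 to 914 bases, the range of all tested members but ttr-14, 26.4% rose and 13.3% fell, with a median log2 fold change of 0.25. Over all 50 tested members, with ttr-14 and its fall included, the values were 20.0%, 6.0% and 0.33. With length trends removed 6 members rose, 8 fell and the median was -0.03. The 6 rises were those of ttr-18, ttr-31, ttr-41, ttr-16, ttr-6 and ttr-54, and the falls were those of ttr-14, ttr-9 and ttr-56 together with ttr-12, ttr-33, ttr-34, ttr-37 and ttr-51. In that fit 19.4% of all genes rose and 18.2% fell. The level of a member and its change were also related in rank (rho 0.32 over 50 members, which share the same libraries), and 7 of the 10 rises were among the 25 members with the higher mean level. That level averages both groups, so a rise in the mutant itself adds to it. Neither value was computed for all genes, so they are not shown to be particular to the family.

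**Figure D5:**
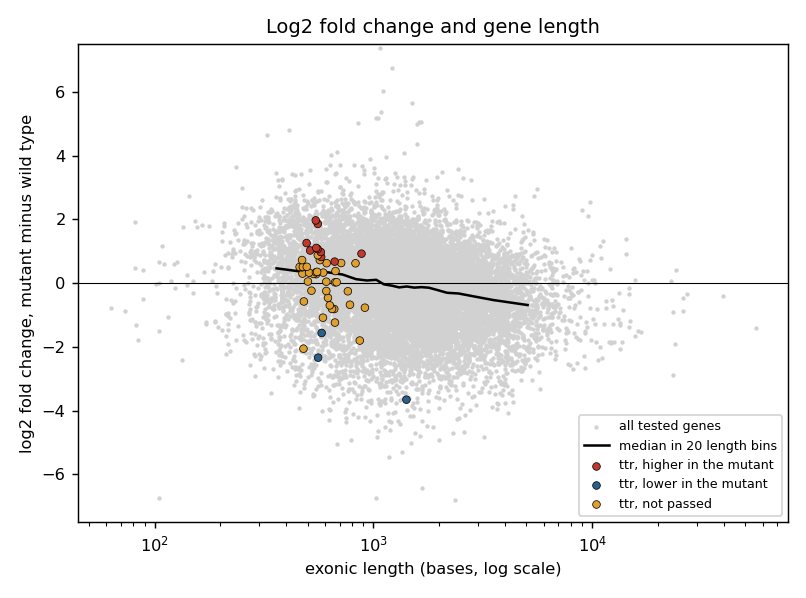
Log2 fold change of mutant minus wild type (y axis) against exonic length in bases (x axis, log scale) for all tested genes (grey) and the 50 tested ttr members (coloured by call). The black line is the median of all genes in 20 length bins, and it declines from above 0 for short genes to below 0 for long ones, with the ttr members at its short end and ttr-14 (1415 bases) furthest right and lowest among them.

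Genes that act with TTR-52 and TTR-11 in phosphatidylserine recognition, engulfment and axon repair were described beside the family. Of 21 listed genes 20 were tested, and 2 rose, 7 fell and 11 did not pass (median log2 fold change -0.16), beside 17.1% of all genes that rose and 20.9% that fell. Under total-count scaling none of the 20 rose, 14 fell and their median was -1.17, beside 3.43% of all genes that rose and 56.4% that fell. Together with the dopaminergic genes described below, 24 were tested, of which 3 rose and 7 fell (median -0.04). With length trends removed 7 of these 24 rose and 6 fell (median 0.31), beside 19.4% and 18.2% of all genes. The difference between the list and all genes was not tested. Under TMM scaling the receptor genes ced-1 and psr-1 and the secreted-protein gene nrf-5 did not pass. ced-1, the engulfment receptor, had 74.95 ± 6.95 CPM in mutant libraries and 48.9 ± 11.5 CPM in wild-type ones (SD; n = 3 in either group), with a log2 fold change of 0.62 that became -0.41 under total-count scaling (edgeR adjusted p = 0.0689 under TMM). psr-1, the phosphatidylserine receptor, had 33.6 ± 8.60 against 40.8 ± 5.76 CPM (log2 fold change -0.28, and -1.28 under total-count scaling). nrf-5, a secreted lipid-binding protein, had 54.2 ± 3.20 against 51.8 ± 7.40 CPM (log2 fold change 0.06, and -0.94 under total-count scaling). Under total-count scaling psr-1 and nrf-5 passed as lower (edgeR adjusted p = 0.00736 and 0.00762), and ced-1 did not pass.

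The 7 listed genes that fell were ced-7, ced-5, ced-12, mtm-1, ina-1, pat-2 and svh-2. ced-7, an ABC transporter required for engulfment, had 21.6 ± 4.33 CPM in mutant libraries and 72.8 ± 21.2 CPM in wild-type ones (3.37-fold lower; edgeR adjusted p = 0.00348). The guanine nucleotide exchange pair ced-5 and ced-12 fell 3.98-fold and 2.60-fold, and mtm-1, a myotubularin lipid phosphatase of engulfment, fell 3.23-fold. ced-5 lost its call without mutant replicate 3 and ced-12 without mutant replicate 2 or 3. The integrin alpha subunit genes ina-1 and pat-2 fell 2.43-fold and 2.31-fold, while the beta subunit gene pat-3 had a log2 fold change of -0.15 and did not pass; ina-1 lost its call without mutant replicate 2. svh-2, a receptor tyrosine kinase gene of axon regeneration, fell 1.76-fold but kept its call only without wild type replicate 1 among the fits with a library left out. The rises were those of the Rac gene ced-10 (log2 fold change 0.68, and -0.35 under total-count scaling) and the dynamin gene dyn-1 (0.83, and -0.19). Both lost the call without mutant replicate 2, mutant replicate 3 or wild type replicate 3, ced-10 also without wild type replicate 2 and dyn-1 without wild type replicate 1. Of 4 dopaminergic genes listed beside ttr-33, the vesicular monoamine transporter gene cat-1 rose (2.72 ± 0.364 against 1.19 ± 0.438 CPM; edgeR adjusted p = 0.0453) and cat-2, dat-1 and bas-1 did not pass. The log2 fold change of cat-1 was 1.20 under TMM and 0.19 under total-count scaling, where it did not pass, and leaving out mutant replicate 2, mutant replicate 3, wild type replicate 1 or wild type replicate 3 also ended its call.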

How the data were processed

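For each library the authors deposited a table of raw read counts, with genes given by WormBase identifier. Per the submitters' processing notes HTSeq and DESeq2 were used. No source used here gives the aligner, build, annotation, strand setting or versions. Of the 46911 identifiers 46863 matched Ensembl release 115 (WBcel235), the source of the 1-based coordinates and lengths. Protein and promoter sequences were not used here. Of all genes 25068 had 0 counts in every library, and no file had a row without a gene.

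Genes were tested with edgeR 4.0.16 (R 4.3.3): quasi-likelihood F-test, robust fit, TMM factors, default expression filter, group as the only term, Benjamini-Hochberg adjustment over 14506 genes, threshold 0.05. SE is the log2 fold change divided by the root of F. Exact intervals are conditional binomial (95%). Members, lists and tests were chosen with earlier results of these data known, and lists come from general knowledge. Members were named for a described role, as the 5 highest levels per kb, and as the smallest called and largest uncalled change. Up to 8 largest rises and up to 8 largest falls were also named (at least 5 CPM in the higher group, no overlap). Among the falls only ttr-14 met this. Of the lists, every called partner, ced-1, psr-1 and nrf-5 were named. No pair of replicates agreed within sampling noise (chi-square divided by its degrees of freedom, 31.9 to 255). The fits were run on simulated counts with few genes changed, in equal numbers up and down. This does not test the scaling difference seen here. Alternatives were total counts, DESeq2 size factors, DESeq2 1.42.0, limma-voom (limma 3.58.1), no filter, length trends removed, a replicate block, no rRNA genes and each library left out. A fit without both libraries that stand apart was added after seeing the data.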

Additional observations from a re-analysis of the deposited data

How the results depend on the processing

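Scaling by total counts called 22 ttr members in place of 13 (2 higher in place of 10, 20 lower in place of 3), moved the family's median log2 fold change from 0.33 to -0.70, and called 8673 genes in all in place of 5511 (498 higher, 8175 lower). It also turned the log2 fold changes of ttr-16 (-0.00053), ttr-6 (-0.045), ttr-54 (-0.10), ttr-25 (-0.20), ttr-46 (-0.34), ttr-2 (-0.50), ttr-15 (-0.96), dyn-1 (-0.19), ced-10 (-0.35), ced-1 (-0.41) and nrf-5 (-0.94), and of the 24 tested partner and dopaminergic genes it called 0 higher in place of 3 and 14 lower in place of 7. With length trends removed 6 members were higher and 8 lower, the family's median was -0.027, ttr-15 was at -0.24 and 7 partner or dopaminergic genes were higher. With no expression filter 6 members were lower (9 of all 15 calls were higher) and 1 partner or dopaminergic gene was higher, and DESeq2 called 6 of the latter higher. Without both libraries that stand apart 8 members were lower, ttr-15 was at -0.37 and 6 partner or dopaminergic genes were higher. Without single libraries the calls ran from 7 to 17 members (5 to 12 higher, 1 to 9 lower), from 2791 to 6154 genes (1359 to 2897 higher, 1424 to 3257 lower) and from 4 to 11 partner or dopaminergic genes (0 to 5 higher, 4 to 7 lower). ttr-15 ranged from -0.25 to 0.32 (-0.03 without mutant replicate 1) and nrf-5 from -0.025 to 0.18. Leaving out a library also leaves 1 arm with 2 samples, and beyond that the cause was not tested. With DESeq2's size factors, with DESeq2 and with rRNA genes left out, all 13 called members kept their calls, ttr-53 was gained in each, and ttr-37 was gained with DESeq2. limma-voom dropped ttr-26, and no expression filter dropped ttr-54, ced-10 and cat-1.

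Same-numbered replicates deviated together for numbers 1 and 2 (correlation 0.462 and 0.437) but not for number 3 (-0.07). These values do not settle whether the numbers pair the samples, and the main fit kept group as its only term. A replicate block called 20 members (13 higher and 7 lower, beside 22.3% and 25.6% of all genes) and 6 partner or dopaminergic genes higher. It kept all 13 calls and added ttr-17, ttr-33, ttr-37, ttr-42 (log2 fold change -2.68, edgeR adjusted p = 0.0114), ttr-48, ttr-49 and ttr-53, and ced-1 was among the partners gained (edgeR adjusted p = 0.0469). Depth limited ttr-52, ttr-3 and ttr-19 most, with at most 14 counts over all libraries.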
